A study of Mus musculus with 22 samples.

Results

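The strength and width of 3 histone H3 marks were set against RNA level, gene by gene, in telencephalon taken from mouse embryos of the ICR strain on embryonic day 16.5 (E16.5). The 20904 genes taken were protein-coding genes of the RefSeq annotation of GRCm38.p6 that matched a row of their own in the RNA table. That annotation holds 21900 protein-coding genes. The marks were acetylation and crotonylation of lysine 9 (H3K9ac and H3K9cr) and lactylation of lysine 18 (H3K18la), each mapped by native ChIP-seq, a form of chromatin immunoprecipitation on material that was not fixed. At E16.5 each mark had 2 libraries and polyA RNA-seq had 2 libraries, which gives 8 of the 22 samples of the series. The same assays at E13.5 served for 1 comparison between the stages. No transgene or treatment was listed for these embryos, and the sources used here do not give how many embryos went into a library. The libraries are stated to be biological replicates, and wherever a pair of values follows a name below, it is library 1 and then library 2.

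Acetyl, crotonyl and lactyl groups are placed on lysines of histone tails, where they remove the positive charge of the side chain. H3K9ac is known to gather around the start sites of transcribed genes, and crotonylation and lactylation draw on crotonyl-CoA and on lactate metabolism. The telencephalon gives rise to the cerebral cortex and the basal ganglia, and at E16.5 it holds dividing radial glia beside many newborn neurons. Because the tissue was taken whole, fewer cells of a type and less RNA per cell cannot be told apart in these values.

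For each gene and library, mark strength was the highest fold enrichment of any peak that touched the gene span or the 2 kb beyond either end, and width was the summed length of peak within that window. Fold enrichment is the peak caller's ratio of the pileup at a summit to the local background. RNA level was CPM, counts scaled to a common library total, averaged over both RNA libraries. CPM is not divided by transcript length, so ranks of RNA between genes carry both abundance and length. Genes with at least 100 CPM in both RNA libraries are called abundant and genes under 0.1 CPM in both are called near-silent.

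The RNA libraries held 17533164 and 18024657 counts, and 3 counts, the limit that a count of 0 allows, stood for 0.171 and 0.166 CPM. Their gene levels ranked alike (Spearman's rho 0.991 across 20904 genes). The peak lists held 41074 to 76037 peaks, and the sequencing depth behind them is unknown. Between the libraries of a mark, fold enrichment had a rho of 0.930 for H3K9ac, 0.940 for H3K9cr and 0.844 for H3K18la. The same rho of width was 0.973, 0.974 and 0.886. Genes were a median of 1.37 times wider in H3K18la library 2 than in library 1, against 1 for H3K9ac and 1.02 for H3K9cr. The 13 telencephalon markers, among them Emx1, Dlx2 and Gad1, summed to 3699 and 3754 CPM, and all 13 carried every mark in every library. Markers of other cells were present, with 7 erythroid genes at 2663 and 3597 CPM, 8 vessel genes at 469 and 496 CPM, 7 microglial genes at 113 and 114 CPM and 6 meningeal genes at 32.0 and 38.7 CPM. None of these markers was at 0 in both libraries. The 4 choroid plexus genes differed between the libraries, at 1.71 and 22.2 CPM.

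Whether a gene had a mark at all followed its RNA level steeply at the low end and then levelled off. A peak in both libraries was found at 70.8% of genes for H3K9ac, 70.4% for H3K9cr and 60.4% for H3K18la. Genes without a single RNA count carried H3K9ac in 8.98% and 8.91% of cases. When the detected genes were split into deciles of CPM, H3K9ac was present at 40.7% and 39.9% of genes in decile 1, at 96.1% and 95.8% in decile 4, whose median was 7.40 CPM, and at 99.7% and 99.6% in decile 10. H3K9cr stood within 3 percentage points of H3K9ac in every decile and library. H3K18la reached genes more slowly along this scale, with 28.4% and 34.7% in decile 1, 78.2% and 84.7% in decile 4 and 97.6% and 98.7% in decile 10.

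**Figure D1:**
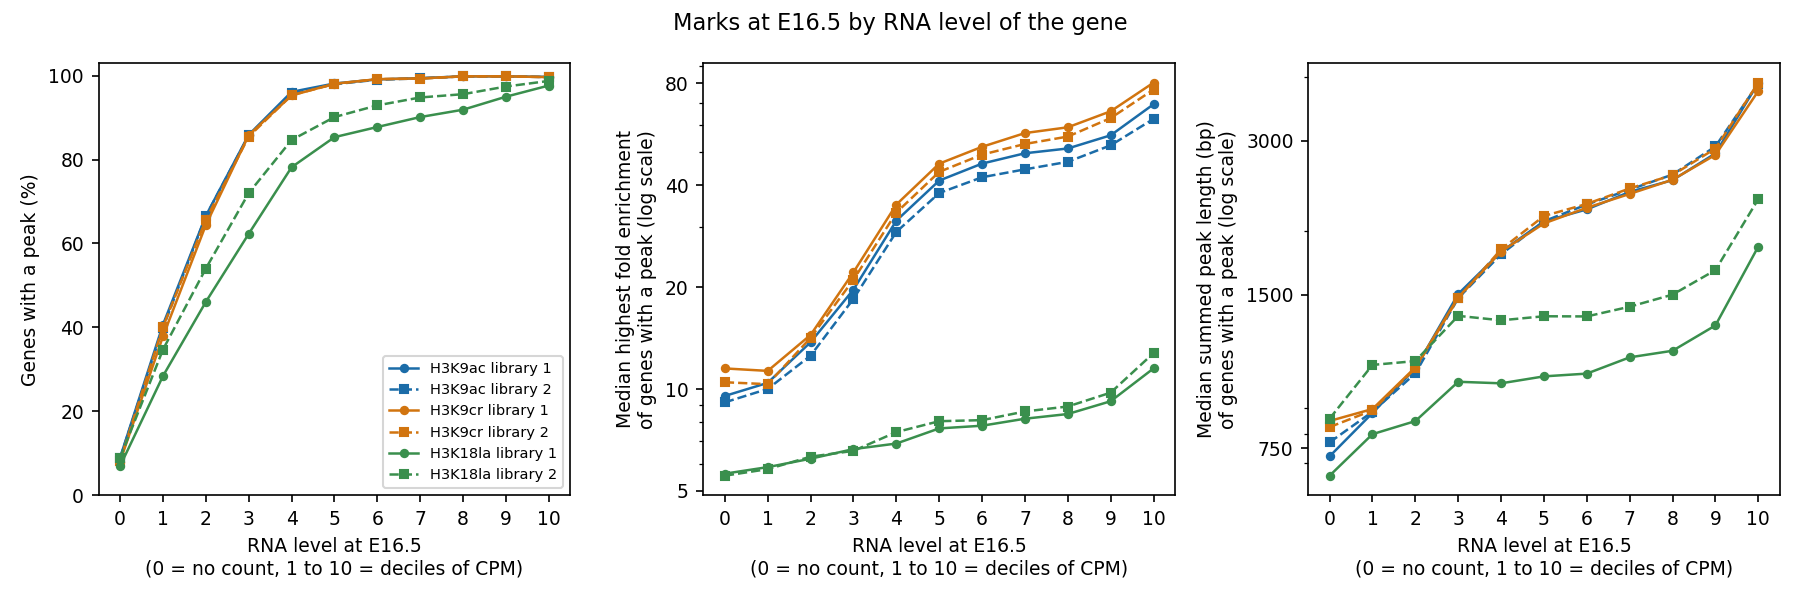
Share of genes with a peak, median highest fold enrichment and median summed peak length by RNA level, for each mark and library at E16.5. The x axis runs from genes with no RNA count (0) through deciles 1 to 10 of mean CPM, and fold and length are on log scales. The H3K9ac and H3K9cr lines lie together and climb to median folds of 62.7 to 80.3 in decile 10, while H3K18la ends at 11.5 and 12.8.

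Where a mark was present, its strength climbed with RNA level. For H3K9ac, the median highest fold enrichment was 69.3 and 62.7 in decile 10, against 10.4 and 10.01 in decile 1, ratios of 6.65 and 6.27. H3K9cr spanned slightly more, with medians of 80.3 and 76.6 in decile 10, against 11.3 and 10.3 in decile 1, ratios of 7.096 and 7.41. For H3K18la the medians were 11.5 and 12.8 in decile 10, against 5.88 and 5.80 in decile 1, ratios of 1.96 and 2.201. In each library the span between these end deciles was far wider than the gap between libraries of the mark. The climb was unevenly spread. From decile 5 to decile 10, the H3K9ac median grew by ratios of 1.68 and 1.66 and the H3K18la median by 1.504 and 1.59.

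Width was graded as well. The median summed length of H3K9ac was 3899.5 and 3886 bp in decile 10, against 879 and 884 bp in decile 1, ratios of 4.44 and 4.40. H3K9cr had ratios of 4.199 and 4.39, and H3K18la had 2.33 and 2.11, with 1863 and 2307.5 bp in decile 10, against 799 and 1092 bp in decile 1. The 52 genes of 1000 CPM or more, led by tubulins and other proteins of the neuronal cytoskeleton, had median H3K9ac folds of 100.7 and 86.3 and median widths of 7080 and 6491 bp. H3K18la medians in these 52 genes were 17.4 and 20.7 for fold and 3378 and 4150 bp for width.

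Across all genes with a peak in a library, the rank correlation of fold with RNA was 0.561 and 0.558 for H3K9ac, 0.554 and 0.557 for H3K9cr and 0.312 and 0.324 for H3K18la (14968 to 14997, 14857 to 14918 and 12888 to 13835 genes). For width it was 0.549 and 0.557, 0.552 and 0.563, and 0.246 and 0.236. These are descriptions across genes, which share a library and are not independent replicates, so no p-value is given. The values for H3K9ac and H3K9cr were near each other, and both H3K18la libraries lay below every library of the lysine 9 marks. With unmarked genes entered at 0, the mean values were 0.795 for H3K9ac fold, 0.797 for H3K9cr fold and 0.680 for H3K18la fold, since presence and grade then count together.

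The grade was much flatter within narrow ranges of RNA. Among genes of 1 to 10 CPM, fold and RNA had a rho of 0.261 ± 0.00144 for H3K9ac and 0.0863 ± 0.0222 for H3K18la (mean and SD, n = 2 libraries). Among genes of 10 to 100 CPM, which made up the largest class with 7604 genes, the values were 0.208 ± 0.00134 and 0.103 ± 0.00258. Among genes of 100 CPM or more they were 0.259 ± 0.0169 and 0.260 ± 0.0128, so in this top range both marks had like values. Detected genes under 1 CPM had 0.117 ± 0.00904 for H3K9ac and 0.0240 ± 0.0186 for H3K18la. H3K9cr followed H3K9ac in each range, at 0.117, 0.259, 0.210 and 0.251 from the lowest range to the highest.

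**Figure D2:**
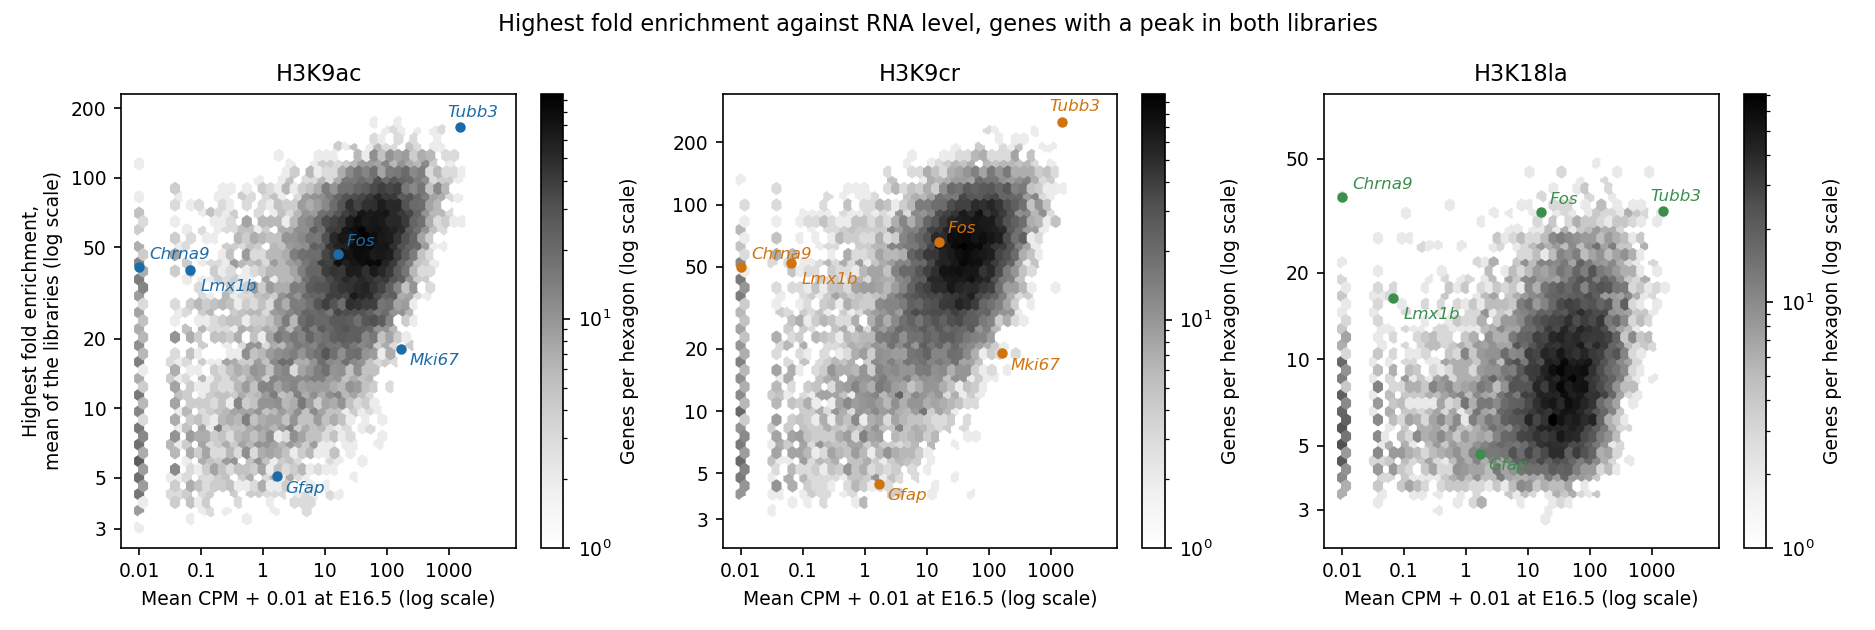
Highest fold enrichment (mean of 2 libraries) against mean CPM + 0.01 at E16.5, both on log scales, for genes with a peak of the mark in both libraries. Darker hexagons hold more genes, and coloured points are named genes. Tubb3 sits at the upper right for H3K9ac, Mki67 lies below the bulk with folds of 18.52 and 17.8 and is missing from the H3K18la panel, and Chrna9, with no RNA count, lies level with Tubb3 and Fos in the H3K18la panel.

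Read the other way, a strong mark still left a wide range of RNA. Genes were split into quintiles of mean H3K9ac fold. The strongest quintile had a median of 68.1 CPM, with 10% of its genes under 8.44 CPM and 10% above 323 CPM. The weakest quintile had a median of 1.72 CPM, with the same limits at 0.0285 and 25.4 CPM. Abundant levels of 100 CPM or more were found in 37.7% of the strongest quintile and in 1.15% of the weakest. For H3K18la fold the strongest quintile had a median of 56.2 CPM and the weakest 13.8 CPM, and 34.5% and 7.75% of their genes reached 100 CPM. A weak H3K18la peak therefore still stood at many well-expressed genes, while a weak H3K9ac peak seldom did.

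Strength and width carried partly separate information on RNA for the lysine 9 marks. Genes in the top tercile of both H3K9ac fold and width had a median of 91.9 CPM (2341 genes), and 46.9% of them reached 100 CPM. Genes in the top tercile of fold and the bottom tercile of width had a median of 24.0 CPM (664 genes), and those in the bottom tercile of fold and the top tercile of width 21.6 CPM (917 genes). Genes low in both had a median of 1.497 CPM (2919 genes). For H3K18la the same 4 corners had medians of 61.8, 24.9, 13.5 and 18.1 CPM, so broad but weak H3K18la stood at lower RNA than narrow and weak H3K18la. The weak and broad corner held long genes, with a median span of 93.4 kb for H3K18la and 90.3 kb for H3K9ac, against 19.1 and 19.0 kb where both were low. Longer genes had greater width in every mark (rho 0.353 for H3K9ac, 0.331 for H3K9cr and 0.401 for H3K18la), while fold went with span little (0.00207, 0.00222 and 0.128).

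Whether width or fold followed RNA more closely differed little for the lysine 9 marks. Width minus fold in rho was -0.0121 and -0.00125 for H3K9ac and -0.00192 and 0.00525 for H3K9cr, whereas it was -0.0665 and -0.0881 for H3K18la, so the mean of -0.0274 over 6 libraries rested mainly on H3K18la (two-sided exact sign-flip permutation test over libraries, p = 0.15625, with 0.03125 the smallest value possible). The 6 libraries are 2 for each mark, are set against the same RNA and are alike between H3K9ac and H3K9cr, so they are not 6 independent units and the p-values of this test are too small. The mean difference was positive, at 0.0483, when only 2 kb on either side of annotated start sites was measured, and was -0.0745 among genes whose window touched no other gene's window (exact permutation p = 0.03125 each), so its direction depended on the window.

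The lysine 9 marks shared nearly the same order over genes, and H3K18la shared part of it. Over the 12345 genes with all marks in all 6 libraries, which are 59.1% of the genes, H3K9cr fold and H3K9ac fold had a rho of 0.953 and 0.950, whereas H3K18la and H3K9ac fold had 0.536 and 0.498. When the ranks of the other marks were held constant, the partial rho of fold with RNA was 0.0643 and 0.0655 for H3K9ac, against 0.457 and 0.456 without that adjustment. For H3K9cr it was 0.0906 and 0.0959, against 0.460 in both libraries, and for H3K18la 0.0264 and 0.0164, against 0.270 and 0.244. The partial rho of H3K18la width was negative, at -0.173 and -0.265, against 0.207 and 0.159. At equal H3K9ac and H3K9cr width, genes with broader H3K18la thus tended to lower RNA in both libraries. H3K18la library 2 was the library with the broader peaks and had the value farther from 0.

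The rho of fold with RNA was lower in both E16.5 libraries than in both E13.5 libraries of each mark. H3K9ac fold had a rho of 0.561 and 0.558 at E16.5, against 0.636 and 0.629 at E13.5, a difference of -0.0732. H3K9cr fold had 0.554 and 0.557 at E16.5, against 0.630 and 0.618 at E13.5, a difference of -0.0684. H3K18la fold had 0.312 and 0.324 at E16.5, against 0.334 and 0.377 at E13.5, a difference of -0.0372. However, 2 libraries against 2 cannot go below a two-sided exact permutation p of 0.33, which is the value all 3 marks had. Differences in width were smaller, at -0.0146 for H3K9ac, -0.0309 for H3K9cr and 0.0119 for H3K18la (exact p 0.33, 0.33 and 0.67). The H3K9ac lists held 49652 and 50668 peaks at E16.5, against 37319 and 34532 at E13.5, and the part of this gap in the difference was not tested. Against the RNA of E13.5, fold in the E16.5 libraries had a rho of 0.578 and 0.574 for H3K9ac and 0.304 and 0.310 for H3K18la.

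**Figure D3:**
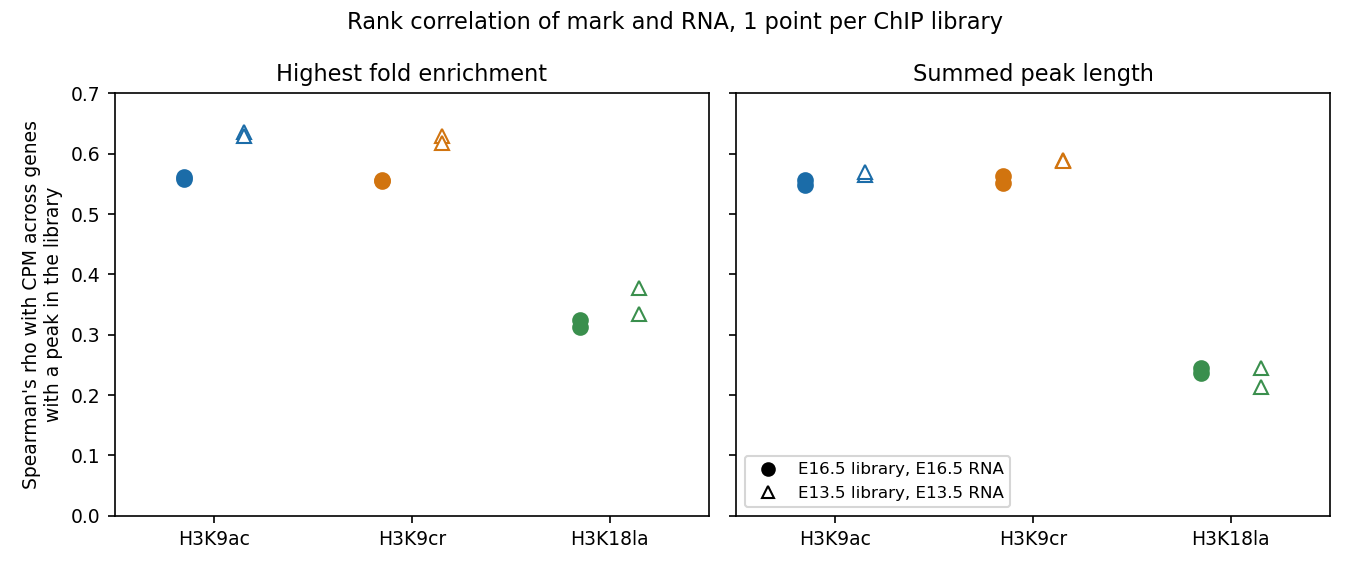
Spearman's rho between mark and CPM across genes with a peak, for highest fold enrichment (left) and summed peak length (right). Each point is 1 ChIP library, filled circles are E16.5 and open triangles E13.5, each with RNA of its own stage. H3K9ac and H3K9cr fold lie near 0.56 at E16.5, against 0.618 to 0.636 at E13.5, and H3K18la lies lower in both panels.

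The CpG content of promoters went along with RNA and, less closely, with the lysine 9 marks, but hardly with H3K18la. CpG islands are stretches rich in CG that cover the start sites of most broadly expressed genes. Of the 20904 genes, 16773 had a promoter in the RefSeq table for GRCm38.p6, running from 250 bases before the start site to 50 after it. The ratio of observed to expected CpG in these 300 bases had a median of 0.840 in abundant genes with all marks, 0.275 in near-silent genes with all marks and 0.135 in near-silent genes without any mark, against 0.597 over all promoters. Across the 9885 genes with a promoter and all marks in every library, the CpG ratio had a rho of 0.338 with RNA, 0.201 with H3K9ac fold, 0.0350 with H3K18la fold and -0.0376 with H3K18la width. At equal RNA, the partial rho of the CpG ratio was 0.0549 with H3K9ac fold, -0.0591 with H3K18la fold and -0.107 with H3K18la width. At equal CpG ratio, fold and RNA still had a partial rho of 0.423 for H3K9ac and 0.266 for H3K18la. The promoters of 6 genes named below are shown, since they span the cases that the results turn on: an abundant neuronal gene with strong marks (Tubb3), a gene with strong H3K18la at modest RNA (Fos), a vessel gene with weak marks (Kdr), an abundant gene without any mark (Hbb-bs) and near-silent genes with all marks (Lmx1b and Chrna9). They are printed 5′ to 3′ on the strand of the gene, with every CG in capitals.
Tubb3 promoter, chr8:123411303-123411602, plus strand: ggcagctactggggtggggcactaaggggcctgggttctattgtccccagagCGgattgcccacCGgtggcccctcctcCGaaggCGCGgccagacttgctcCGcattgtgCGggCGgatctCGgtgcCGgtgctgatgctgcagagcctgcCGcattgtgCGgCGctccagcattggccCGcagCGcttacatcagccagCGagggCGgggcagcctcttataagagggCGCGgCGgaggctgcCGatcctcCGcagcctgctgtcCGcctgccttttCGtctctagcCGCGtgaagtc
Fos promoter, chr12:85473640-85473939, plus strand: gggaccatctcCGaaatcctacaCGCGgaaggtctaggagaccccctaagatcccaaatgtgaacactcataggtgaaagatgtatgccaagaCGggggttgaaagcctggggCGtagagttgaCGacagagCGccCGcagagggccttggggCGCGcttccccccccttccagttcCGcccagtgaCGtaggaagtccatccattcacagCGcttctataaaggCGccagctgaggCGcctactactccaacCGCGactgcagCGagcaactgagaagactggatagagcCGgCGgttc
Kdr promoter, chr5:75978406-75978705, minus strand: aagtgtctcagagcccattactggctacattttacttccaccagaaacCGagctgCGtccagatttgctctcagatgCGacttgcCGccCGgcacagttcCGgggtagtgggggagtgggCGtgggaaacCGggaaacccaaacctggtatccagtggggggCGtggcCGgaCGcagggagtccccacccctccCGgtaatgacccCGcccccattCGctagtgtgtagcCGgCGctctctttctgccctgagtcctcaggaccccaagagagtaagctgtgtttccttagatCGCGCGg
Hbb-bs promoter, chr7:103827879-103828178, minus strand: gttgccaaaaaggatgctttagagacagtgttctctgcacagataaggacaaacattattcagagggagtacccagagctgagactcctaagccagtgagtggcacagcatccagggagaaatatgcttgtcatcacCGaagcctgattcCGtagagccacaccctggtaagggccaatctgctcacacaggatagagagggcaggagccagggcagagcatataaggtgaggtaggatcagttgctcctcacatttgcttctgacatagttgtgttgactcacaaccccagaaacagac
Lmx1b promoter, chr2:33641049-33641348, minus strand: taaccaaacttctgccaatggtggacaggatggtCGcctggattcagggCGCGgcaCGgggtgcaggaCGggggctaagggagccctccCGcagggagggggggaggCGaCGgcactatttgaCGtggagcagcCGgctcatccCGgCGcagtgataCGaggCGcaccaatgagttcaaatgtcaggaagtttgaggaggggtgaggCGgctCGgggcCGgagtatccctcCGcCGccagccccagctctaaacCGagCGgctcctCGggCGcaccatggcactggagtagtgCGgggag
Chrna9 promoter, chr5:65966874-65967173, plus strand: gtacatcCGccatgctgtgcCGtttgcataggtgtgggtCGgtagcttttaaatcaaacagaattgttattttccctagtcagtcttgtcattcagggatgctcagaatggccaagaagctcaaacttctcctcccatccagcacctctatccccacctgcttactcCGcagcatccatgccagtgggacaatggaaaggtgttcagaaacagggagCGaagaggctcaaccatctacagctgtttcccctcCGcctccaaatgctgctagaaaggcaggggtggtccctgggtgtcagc
Tubb3 had 26 CG in this stretch, Lmx1b 24, Fos 20 and Kdr 19, whereas Chrna9 had 6 and Hbb-bs 2. A CG-rich start was thus present at genes with strong marks and high RNA (Tubb3), with weak marks (Kdr) and with almost no RNA (Lmx1b).

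Neuronal cytoskeleton genes were high in RNA, fold and width. These genes build the microtubules and growing axons of newborn neurons. All 19 had H3K9ac in both libraries, with a median RNA level of 1087 CPM, and the median member stood at percentile 93.3 of all marked genes for H3K9ac fold and 93.1 for H3K18la fold. Tuba1a, an alpha tubulin, had 6150.2 and 6177 CPM with H3K9ac folds of 159 and 149. The neuronal beta tubulin gene Tubb3 (ENSMUSG00000062380.4, chr8:123411553-123422015) had 1532 and 1485 CPM, with H3K9ac folds of 187 and 143, H3K9cr folds of 261 and 242 and H3K18la folds of 31.96 and 33.6. Its relative Tubb2b had 3032 and 2879.6 CPM and the strongest H3K18la of the list, at 48.1 and 59.3. The neurofilament gene Nefl was the member lowest in RNA, at 35.4 and 31.3 CPM, with H3K9ac folds of 12.8 and 15.4 and no H3K18la peak. Among genes of the same RNA decile, with genes that lack a peak sharing the lowest rank, the list stood at percentiles 79.7 and 77.5 for H3K9ac fold and 80.5 and 79.3 for H3K9ac width. Decile 10 has a median of 221 CPM, so it does not match this list in RNA. Of the 19 genes, 12 were among the 52 of 1000 CPM or more, and the list's median H3K9ac folds of 96.4 and 85.8 lay near the 100.7 and 86.3 of those 52.

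As a list, the telencephalon markers, which are transcription factors apart from Gad1 and Gad2, had broad rather than tall marks. The 13 telencephalon markers stood at a median percentile of 58.7 for H3K9ac fold but 96.0 for H3K9ac width, and within their RNA deciles at 34.5 and 41.1 for fold and 89.96 and 89.6 for width. Tbr1, a factor of deep-layer cortical neurons, had 226 and 231 CPM with H3K9ac folds of 52.8 and 31.4 and widths of 13217 and 13376 bp. Bcl11b, another deep-layer factor, had 414 and 441 CPM with folds of 75.5 and 71.04 and widths of 61422 and 55327 bp. Dlx1, a factor of inhibitory neurons, had 439 and 489.7 CPM with folds of 42.99 and 52.8 and widths of 9869 and 9869 bp. The 15 cortical layer genes, the 15 inhibitory neuron and ventral telencephalon genes and the 15 radial glia genes had the same form, with H3K9ac width at percentiles 87.5 to 95.1 of their RNA deciles and H3K9ac fold at 16.2 to 37.5. Pax6, a factor of radial glia, had 54.9 and 48.5 CPM with folds of 33.7 and 30.99 over 23336 and 23160 bp.

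In the median, ribosomal protein and oxidative phosphorylation genes had the opposite form, tall and narrow for the lysine 9 marks at like CPM. CPM is not divided by transcript length, and the part of length in these percentiles was not tested. Of 85 cytosolic ribosomal protein genes, 83 had H3K9ac in both libraries, and the 82 with at least 1 CPM stood at percentiles 73.9 and 77.5 of their RNA deciles for H3K9ac fold but 34.1 and 30.9 for width. H3K18la fold in these genes was at 38.8 and 40.4. Rplp0, a protein of the large subunit, had 958 and 947 CPM, H3K9ac folds of 79.97 and 48.9 over 2400 and 2415 bp and H3K18la folds of 7.16 and 9.76 over 356 and 582 bp. All 75 nuclear genes of oxidative phosphorylation had H3K9ac, at percentiles 76.2 and 71.1 for fold and 28.0 and 25.8 for width. Atp5b, a subunit of ATP synthase, had 569 and 546 CPM with H3K9ac folds of 76.4 and 92.5 and H3K18la folds of 8.69 and 7.03. Ndufb1, a subunit of complex I, had 6.59 and 6.602 CPM with H3K9ac folds of 107 and 112. Its H3K9ac width stood at percentiles 73.7 and 72.6 of its RNA decile, so this gene was tall but not narrow. The median spans of these groups were 3.18 and 7.28 kb, against 11.3 kb for the telencephalon markers and 150.1 kb for the cortical layer genes. Short genes were not always narrow in H3K9ac: the inhibitory neuron list, with a median span of 5.87 kb, and the immediate early genes, with 3.62 kb, stood at percentiles 89.96 and 89.6 and at 86.4 and 82.3 of their RNA deciles for width.

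Immediate early genes, which neurons and other cells switch on within minutes of a stimulus, had strong H3K18la at modest RNA. All 16 carried every mark in every library, with a median RNA level of 15.1 CPM. The 15 with at least 1 CPM stood at percentiles 91.8 and 92.3 of their RNA deciles for H3K18la fold and 68.8 and 72.6 for H3K9ac fold. Fos, a subunit of the AP-1 factor, had 15.4 and 16.9 CPM, H3K18la folds of 27.01 and 38.1 and H3K9ac folds of 30.9 and 62.2. Dusp1, a phosphatase of MAP kinases, had 43.7 and 49.1 CPM with H3K18la folds of 32.5 and 34.6, and Npas4, an activity-dependent factor of neurons, had 12.001 and 17.4 CPM with 23.3 and 29.8. Egr2 and Atf3 were low in both, with 0.513 and 0.666 CPM and 1.48 and 0.832 CPM and H3K18la folds of 4.09 and 4.02 and 4.09 and 3.83.

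Genes of division had low H3K9ac folds for their RNA. All 15 cell cycle genes had H3K9ac in both libraries, against 70.8% of all genes. They stood at percentiles 16.9 and 19.2 of their RNA deciles for fold and 46.9 and 44.4 for width. H3K18la was present in both libraries at 10 (66.7%), near the 60.4% of all genes. Of genes of 10 to 100 CPM, 89.3% had H3K18la in library 1 and 93.6% in library 2. Mki67, a protein of dividing cells, had 174 and 161 CPM, H3K9ac folds of 18.52 and 17.8, H3K9cr folds of 20.9 and 17.3 and no H3K18la peak. The mitotic kinase gene Aurkb, at 23.7 and 23.3 CPM, had H3K9ac folds of 13.5 and 18.4 and no H3K18la either. Ccnd2, a cyclin of the G1 phase, was the highest of the list in RNA and in H3K9ac width, with 503 and 509.8 CPM, H3K9ac widths of 10617 and 9663 bp and H3K18la folds of 7.67 and 11.3.

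Genes of vessels and microglia had weak H3K9ac or none. Of 13 vessel genes, 10 (76.9%) had H3K9ac and 4 (30.8%) had H3K18la in both libraries, against 70.8% and 60.4% of all genes. The median H3K9ac folds of those 10 were 9.18 and 8.27, against 47.8 and 43.3 for all genes of 10 to 100 CPM, of which 99.1% carried the mark. Kdr, a receptor for vascular growth factor in endothelial cells, had 93.1 and 104 CPM with H3K9ac folds of 19.4 and 15.6 and no H3K18la peak. Cldn5, which seals the junctions between endothelial cells, had 74.7 and 75.7 CPM with H3K9ac folds of 8.29 and 6.61. Cdh5, the cadherin of endothelial cells, had 41.6 and 44.9 CPM with an H3K9ac peak of fold 3.51 in library 1 and none in library 2. Of 13 microglial genes, 3 (23.1%) had H3K9ac in both libraries, with median folds of 6.45 and 5.45. Csf1r, a growth factor receptor of microglia, had 40.3 and 38.2 CPM with an H3K9ac peak of fold 3.40 in library 1 and none in library 2, and Cx3cr1, a chemokine receptor, had 27.9 and 29.04 CPM and no H3K9ac or H3K18la peak. Pecam1 had the strongest H3K18la of the vessel genes, with 39.2 and 32.5 CPM and H3K18la folds of 21.3 and 27.7 over 6380 and 8811 bp. Of 14 glial genes, 12 (85.7%) had H3K9ac in both libraries, with median folds of 12.4 and 12.1. H3K18la was present in both libraries at 11 (78.6%), with median folds of 6.02 and 8.04. Both shares lay above the 70.8% and 60.4% of all genes. Gfap, a filament protein of astrocytes, had 1.48 and 1.89 CPM and H3K9ac folds of 5.05 and 5.13.

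**Figure D4:**
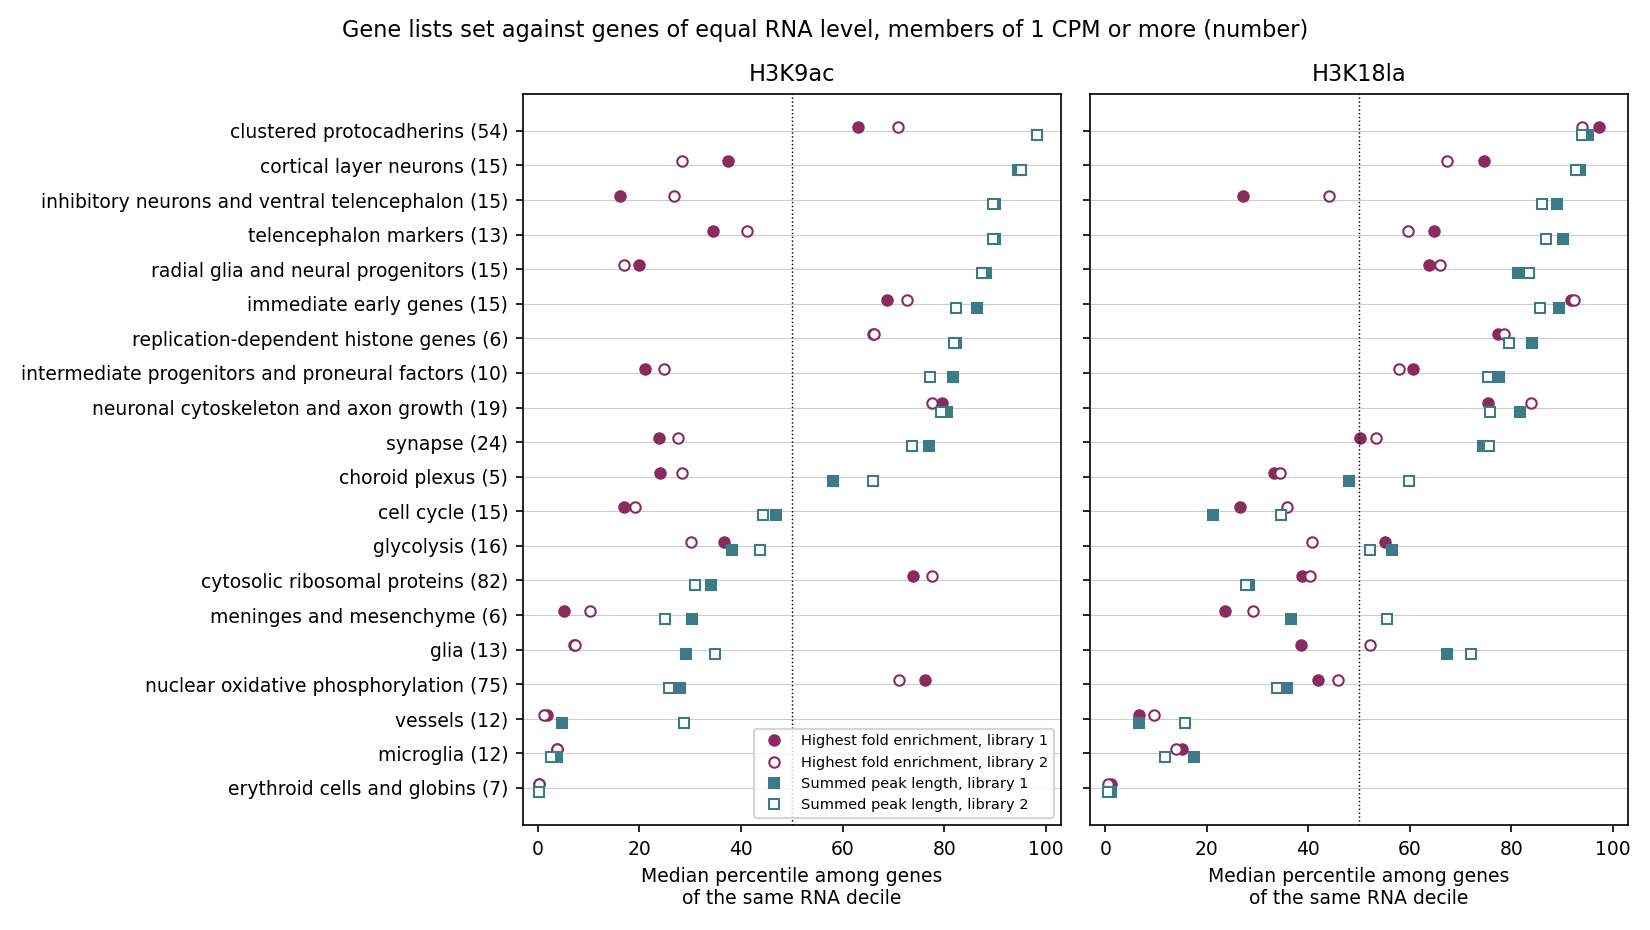
Median percentile of highest fold enrichment (circles) and summed peak length (squares) among genes of the same RNA decile, for members with at least 1 CPM of each gene list, with H3K9ac on the left and H3K18la on the right. Filled symbols are library 1, open symbols library 2, and the dotted line marks percentile 50. Telencephalon, cortical layer and inhibitory neuron genes lie far right for H3K9ac length but left of the line for fold, and ribosomal protein and oxidative phosphorylation genes show the reverse. Genes without a peak share the lowest rank, so the symbols of erythroid cells, where none of 7 genes has H3K9ac or H3K18la, and of microglia, where 3 of 12 have each in both libraries, stand mostly for missing peaks.

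Replication-dependent histone genes were marked but had almost no RNA in these libraries. Their mRNAs are known to end in a stem-loop in place of a poly(A) tail, and the RNA was polyA RNA. Of 64 such genes, 62 (96.9%) had H3K9ac in both libraries, against 70.8% of all genes. Every mark in every library was found at 56 (87.5%), against 59.1%. The median RNA level of the 64 was 0.141 CPM. With a median span of 0.4925 kb and 2 kb added at either end, several shared a peak with a neighbour. The counts are therefore not counts of separate peaks. H4f16, a histone H4 gene, had the highest mean H3K9ac fold of all genes, with folds of 222 and 156 at 0.128 and 0.0555 CPM, although Apc2 and others were higher in library 2. The gene H3c1 had 0 and 0.05698 CPM with H3K9ac folds of 113 and 91.4 over 4170 and 4262 bp. Its neighbours H4c1 and H1f1 had the same rank of H3K9ac fold in both libraries. Gene families that other tissues use mostly lacked H3K9ac, as did most genes without an RNA count, of which 8.98% and 8.91% carried it. Of 1101 olfactory receptor genes 3 (0.272%) had H3K9ac in both libraries, and of 349 vomeronasal receptor genes 2 (0.573%), shares below that. Of 39 Hox genes, which pattern the trunk and hindbrain, 4 (10.3%) had it. Of 101 keratin and keratin-associated genes 12 (11.9%) did, so these 2 families lay near the share of genes without a count. Clustered protocadherins, neuronal adhesion proteins whose genes share long windows and often the same peak, were of 2 kinds. The 12 Pcdha and 21 Pcdhg genes all had H3K9ac and H3K18la in both libraries, with median H3K9ac widths of 12260 and 12535.5 bp in Pcdha and 19190 and 19847 bp in Pcdhg. Of the 22 Pcdhb genes, 19 had H3K9ac in both libraries, with median widths of 358.5 and 441 bp over all 22, and none had H3K18la in either library.

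Among 2427 abundant genes, 5 (0.206%) had no peak of any mark in any library, against 25.5% of all genes. Of these, 4 were adult globin genes, which encode the chains of haemoglobin in red blood cells. Of the 7 erythroid markers, 6 had no peak of any mark, and the part of blood in these values was not tested. Hba-a1 had 1418 and 1929 CPM, Hbb-bs 815 and 1106 CPM, Hbb-bt 228 and 281 CPM and Hba-a2 169 and 234 CPM, each higher in library 2. Hba-a1 and Hba-a2 are near-identical copies, so reads may have been split between them. The nearest peaks to Hbb-bs (ENSMUSG00000052305.6, chr7:103826523-103827928) lay 390.9 to 391.2 kb away for all 3 marks, whereas Hba-a1 (ENSMUSG00000069919.7, chr11:32283672-32284486) had weak H3K9ac peaks 2.48 kb away with folds of 10.1 and 13.1. The promoters of the globin genes and of the fifth gene had a median CpG ratio of 0.188. Of 3 motifs searched on both strands, CCAAT stood in 5 of 5, against 39.2% of all promoters. TATAAA stood in 2 of 5, against 13.1%, and GGGCGG in 0 of 5, against 47.7%. As 4 of the 5 are related globin genes, these are not separate observations. The fifth gene, Zfp652, a zinc finger factor, had 156 and 150.2 CPM, and its nearest peaks lay 31.6 to 31.8 kb outside its RefSeq span of 15.6 kb. Whether this span leaves out an upstream start of the gene was not tested, and without Zfp652 the count is 4. The number depended on the window and on the genes counted. It was 61 when only 2 kb around gene ends was read. When only start sites were read, which 16773 genes had, it was 23. Among the 11258 genes whose window touched no other, it was 3.

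More abundant genes lacked H3K18la alone. In 34 of 2427 abundant genes (1.40%) no H3K18la peak was found in either library, against 6 for H3K9ac and 7 for H3K9cr. Apart from the globins, the highest in RNA were Usp7, a deubiquitinase, with 250.2 and 256 CPM and H3K9ac folds of 27.6 and 30.98, and Man2a2, a mannosidase of the Golgi, with 238 and 245 CPM and H3K9ac folds of 17.4 and 21.3. Igf2, an imprinted growth factor gene, had 146 and 169 CPM, no H3K9cr or H3K18la peak, and an H3K9ac peak of fold 4.49 in library 1 and none in library 2. The weakest H3K9ac among abundant genes was found at 9330159F19Rik, Setdb1 and Plxnd1. Setdb1, a histone H3 lysine 9 methyltransferase, had 124 and 132 CPM with H3K9ac folds of 3.93 and 6.66 and no H3K18la, and Plxnd1, a semaphorin receptor, had 146 and 169 CPM with 5.04 and 6.503. For H3K18la the weakest were Sec24b, Gpi1 and Rpl22, of which the glycolytic enzyme gene Gpi1 had 221 and 209 CPM with H3K18la folds of 3.23 and 3.34 and H3K9ac folds of 27.2 and 20.2.

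At the other end, 313 of 5109 near-silent genes (6.13%) carried all marks in all 6 libraries, against 59.1% of all genes, and 4222 (82.6%) carried none. Of the 313, 191 had no RNA count at all, and 240 were also under 0.1 CPM in both E13.5 libraries. The 313 include replication-dependent histone genes such as H3c10 and H2bc15, whose mRNAs lack a poly(A) tail. For these, polyA RNA does not show whether the gene was silent. Among the 4042 near-silent genes whose window touched no other gene's window, the number was 146 (3.61%). It was 92 when only start sites were read, which 16773 of all genes had. With limits of 50 and 0.05 CPM it was 191, and these are the genes without a count. In several of the near-silent genes with all marks, the peak belonged to the window of a neighbour too. Mc1r, the melanocortin receptor of pigment cells, lies beside Tubb3 and had the same H3K9ac folds, 187 and 143, at 0.114 and 0.111 CPM, just outside the near-silent limit. Msmb had H3K9ac folds of 170.3 and 167 and no count, and Ncoa4, at 70.9 CPM, reached the same peak. Adamts13, which cleaves von Willebrand factor, had folds of 87.5 and 90.1, with Cacfd1 at 99.3 CPM on the same peak. In all, 96 of the 313 (30.7%) had another gene of 1 CPM or more at their strongest H3K9ac peak, close to the 27.5% found in marked genes of 10 to 100 CPM.

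The strongest peak of near-silent genes lay less often at their own start. Among the 241 such genes with an annotated start, the strongest H3K9ac peak was within 2 kb of it in 39.4% and 38.2%, against 90.6% and 90.4% of genes of 10 to 100 CPM and 92.2% and 91.6% of abundant genes. For H3K18la it was 34.4% and 36.5% in near-silent genes, against 79.1% and 78.8% and against 81.8% and 81.3%. Near-silent genes whose window touched no other had still lower shares, 29.5% and 26.7% for H3K9ac (105 genes), with a median distance of 7.34 and 8.74 kb. Chrna9 (ENSMUSG00000029205.12, chr5:65934854-65977486), a nicotinic receptor subunit of inner ear hair cells, had no RNA count, H3K18la folds of 29.9 and 43.6 and H3K9ac folds of 43.2 and 38.7, and its strongest peaks lay 15.2 to 16.1 kb from its start. Among genes with no RNA count, Sgca, a sarcoglycan of muscle, had a higher mean H3K18la fold, with folds of 49.9 and 53.6. Lmx1b (ENSMUSG00000038765.13, chr2:33560965-33641208), a factor of midbrain and limb development, had 0.05703 and 0.0555 CPM, H3K9ac folds of 46.5 and 33.3 and its strongest H3K9ac peaks 23.8 kb from its start in both libraries. Tnni3k, a kinase of heart muscle, had no RNA count, H3K18la folds of 34.5 and 34.9 over 15279 and 21004 bp and its strongest H3K9ac peaks 237.5 and 237.2 kb from its start. The gene 4930505A04Rik, at 0 and 0.0555 CPM, was an exception with all its strongest peaks at its start.

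**Figure D5:**
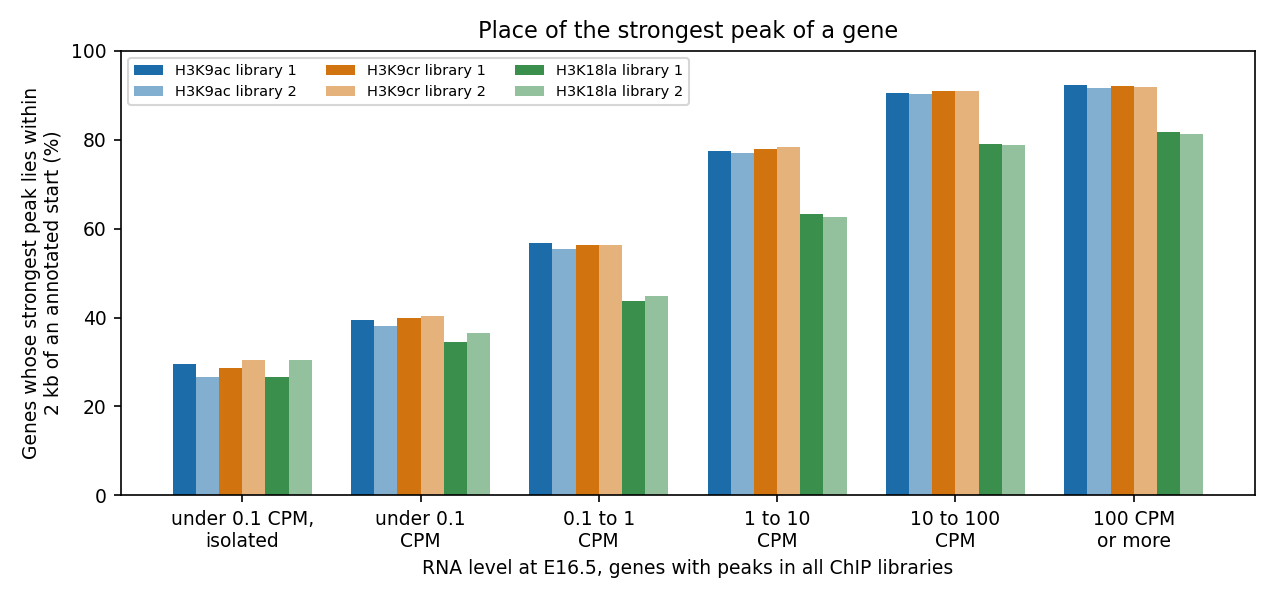
Share of genes whose strongest peak lies within 2 kb of an annotated start, by RNA level at E16.5, among genes with peaks in all 6 ChIP libraries and an annotated start. Bars are single libraries, and isolated means that the gene window touches no other window. The bars of isolated near-silent genes lie between 26.7% and 30.5%, against 91.6% to 92.2% for the lysine 9 marks and 81.3% to 81.8% for H3K18la in abundant genes.

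The highest folds and greatest widths are given with their RNA levels. Apc2, a microtubule-associated relative of the tumour suppressor Apc, had 1154 and 1174 CPM with H3K9ac folds of 194 and 180.0 and H3K9cr folds of 268 and 279.9. Celf2, an RNA-binding protein, had 842 and 835 CPM and H3K9ac folds of 196 and 170.3. Mex3b, another RNA-binding protein, had 262 and 253 CPM and H3K9cr folds of 269 and 247. H3K18la was strongest at Gnai2, an inhibitory G protein subunit, with folds of 73.9 and 68.95 at 395 and 383 CPM, and next at Diaph1, Rem2, Adgrg1 and Myo1d. Rem2, a small GTPase that modulates calcium channels, had 9.87 and 10.5 CPM with H3K18la folds of 57.5 and 67.5, and the myosin gene Myo1d had 3.02 and 3.72 CPM with 54.5 and 54.2, so the top of this mark reached genes of modest RNA. H3K9ac was broadest at Tcf4, a basic helix-loop-helix factor of neurons, with 102228 and 101501 bp at 754 and 724 CPM. It was next broadest at Gse1, Nfia, Nfix and Auts2. The nuclear factor gene Nfix had 72189 and 72701 bp in a gene of 96.5 kb at 789 and 787 CPM, with H3K9ac folds of 54.7 and 44.2, below the median of its RNA decile.

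H3K18la and H3K9ac ranked some genes very differently. Among genes with all marks and at least 1 CPM, the 5 that stood highest in H3K18la fold relative to H3K9ac fold were Synj2, Elfn1, Nfam1, Diaph3 and Rasgrp2. Synj2, a lipid phosphatase of vesicle traffic, had H3K18la folds of 28.5 and 46.7 and H3K9ac folds of 16.04 and 19.97 at 2.395 and 2.94 CPM, and its rank was 91.5 percentile points higher for H3K18la. Elfn1, a synaptic organiser of inhibitory neurons, had H3K18la folds of 13.7 and 25.4 and H3K9ac folds of 9.26 and 10.2 at 22.6 and 22.4 CPM. The 5 at the other end were Iffo1, Trnau1ap, Zfp317, Haus6 and Utp11. Haus6, a subunit of the augmin complex of the spindle, had H3K18la folds of 5.37 and 5.55 and H3K9ac folds of 129.9 and 112 at 26.2 and 31.6 CPM. Iffo1 had H3K18la folds of 3.86 and 3.59 and H3K9ac folds of 88.2 and 81.2, and these H3K9ac folds equal those of Gapdh, whose window holds the same peak. All 5 genes higher in H3K18la had larger H3K18la folds in library 2 than in library 1, and the part of this in their ranks was not tested.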

How the data were processed

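RNA levels came from the expected counts per gene that the authors deposited, of which 25.2% to 25.3% were not whole in the E16.5 libraries. The submitters' processing notes list Salmon 1.1.0. CPM was each value scaled to its library total, unrounded. For the peaks, of which each library had its own list, the same notes list GRCm38, Bowtie2 2.4.1 and MACS2 2.2.7.1. The deposited peak values used were, per the file headers, fold enrichment (a ratio over the local background) and the -log10 q-value, whose weakest entries lay close to a q of 0.01. What served as control for peak calling was not stated in the labels, and other columns were not used here. No column belonged to another series.

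Gene spans and promoters came from RefSeq, GRCm38.p6. Of the protein-coding genes, 20846 were matched by gene number and 60 by symbol. Genes that fell on the same row of the RNA table were left out, leaving 20904. A peak counted with an overlap of at least 1 bp, and widths counted bases within the window. Correlations are Spearman's rho (scipy 1.17.1, pandas 2.3.3, numpy 2.4.6, Python 3.11.15), and tests are exact permutations over libraries. The measuring code was tested on simulated data. Alternatives varied the window, peak limit, width measure, RNA scaling and range, limits of the classes, gene span, pairing by number, and each library left out.

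Genes were named by rule: the extremes of RNA among genes without a mark, of mark among near-silent and abundant genes, of fold, width and rank difference, the ends of each gene list in RNA, and 12 chosen genes, of which 1 is not reported here. Other list members were picked after their values were seen. The genes, lists and rules were chosen with earlier results of these data known.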

Additional observations from a re-analysis of the deposited data

How the results depend on the processing

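All signs of rho with RNA held under the alternatives tried. In the order H3K9ac, H3K9cr, H3K18la, fold and then width, mean rho was 0.795, 0.797, 0.680, 0.794, 0.799 and 0.656 with unmarked genes at 0. It was 0.505, 0.501, 0.280, 0.535, 0.530 and 0.296 at gene ends only, and 0.529, 0.529, 0.307, 0.588, 0.587 and 0.335 at start sites only, which was chosen after seeing the data. Windows that overlapped no other gave 0.670, 0.664, 0.402, 0.613, 0.622 and 0.278, genes of 1 CPM or more 0.466, 0.467, 0.276, 0.442, 0.450 and 0.200, and rho partial for gene span 0.567, 0.563, 0.307, 0.536, 0.541 and 0.207. A -log10 q of at least 5 moved fold to 0.550, 0.546 and 0.288 and H3K18la width to 0.228. Peaks with 50% or more of their length in the window gave 0.572 and 0.567 for H3K9ac and H3K9cr fold and 0.547, 0.550 and 0.234 for width, and whole peak lengths gave widths of 0.532, 0.535 and 0.228.

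Width minus fold, -0.0274 in the report, was 0.0252 at gene ends and 0.0483 at start sites, and was -0.0745 for windows that overlapped no other, -0.0443 with the 50% rule, -0.0391 for 1 CPM or more, -0.0508 partial for span and -0.0461 for whole lengths (exact permutation p = 0.03125 each, and from 0.0625 to 0.40625 under the others, with 0.15625 in the report, all too small because the libraries are not independent). The E16.5 minus E13.5 difference of H3K18la width, 0.0119 in the report, was -0.0113 with all genes, -0.00839 at gene ends, -0.00318 partial for span and -0.0160 at start sites, and these added checks of both differences were chosen after seeing the data. The causes were not tested.

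Abundant genes without a mark numbered 61 at gene ends, 23 at start sites, 3 with windows that overlapped no other and 8 with 50 and 0.05 CPM. Near-silent genes with all marks numbered 205, 92, 146 and 191 in the same order, and the 191 were those without a count. Start sites were annotated for 16773 genes and 11258 had windows that overlapped no other, so these settings also changed the genes counted. Size factors by median of ratios changed no value beyond the spread between libraries. With RNA and ChIP paired by replicate number as a block, rho of H3K9ac fold was 0.559, and nothing in the labels ties a ChIP library to an RNA library.

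Leaving out 1 library gave 5 to 6 and 318 to 422 for these counts, rho of 0.558 to 0.561, 0.554 to 0.557 and 0.312 to 0.324 for fold and 0.549 to 0.557, 0.552 to 0.563 and 0.236 to 0.246 for width, and -0.0340 to -0.0153 for width minus fold. E16.5 minus E13.5 differences were -0.0746 to -0.0718, -0.0700 to -0.0669 and -0.0434 to -0.0310 for fold and -0.0187 to -0.0106, -0.0360 to -0.0258 and 0.00727 to 0.0166 for width.

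CPM per kb of coding length was not run, since no lengths were at hand. The depth of the ChIP libraries is unknown, so weak peaks cannot be weighed by it.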
